A study of Mus musculus with 4 samples.

Results

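The amino acid transporter genes described here are the genes of the solute carrier (SLC) families 1, 3, 6, 7, 36, 38 and 43. They were chosen by symbol, as every row of the deposited expression table named Slc1a, Slc3a, Slc6a, Slc7a, Slc36a, Slc38a or Slc43a followed by a number. This gave 45 genes of the 16857 in the table. RNA had been sequenced in bulk from 4 mouse adenoma colonoid lines, which are epithelial cultures grown from colon tissue, with 1 library per line. The G2 lines (numbers 157 and 236) carried the genotype Apcnull/LSL-mTERT-homo, and the G0 lines (numbers 75 and 179) carried Apcnull/LSL-mTERT-het. All 4 lines were labelled Apcmin, so the loss of Apc, a negative regulator of Wnt signalling, is shared by both groups, and by these labels the groups differ in being homozygous (G2) or heterozygous (G0) for LSL-mTERT, an allele named after the telomerase gene Tert. The series is about low and high chromosomal instability in such colonoids, and the sample labels do not say which group is which. Each line is a separate culture, and the labels do not say whether each came from a separate mouse, so p-values measure only the spread between these lines.

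Cells take up and exchange amino acids through carriers with overlapping substrates. Slc7 light chains reach the cell surface as heterodimers with a Slc3 heavy chain: Slc3a2 (CD98) pairs with the exchangers of large neutral, cationic and cystine substrates, and Slc3a1 pairs with Slc7a9. Slc1a5 and some Slc38 carriers, such as Slc38a1 and Slc38a2, bring glutamine and small neutral amino acids into cells. Exchangers can then trade these for essential ones, and the Slc6 family takes up its substrates together with sodium and chloride. In many cell types the transcription factor ATF4 raises several of these genes when amino acids run short, and NRF2 raises Slc7a11 under oxidative stress.

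The libraries held 16545429 to 17901744 recovered counts each. Tert stood at 0 and 0.978 normalized counts in G2 and at 93.3 and 97.5 in G0, where a normalized count is a count divided by the authors' size factor for the library. The 4 Y-linked genes Ddx3y, Eif2s3y, Kdm5d and Uty lay between 296 and 526 normalized counts in the G2 libraries and had a count of 0 in the G0 libraries, so the presence of Y transcripts cannot be told apart from the group. All 7 epithelial markers were found in every library, with Cdx2 and Vil1 lower and Cdh1 higher in G2. Summed marker levels in the order G2 replicates 1 and 2, then G0 replicates 1 and 2, were 194, 437, 9.82 and 6.10 for all 4 smooth muscle markers (mostly Acta2), 48.4, 46.9, 3.93 and 4.06 for 3 of 4 endothelial markers (mostly Tek), 26.2, 30.3, 1.96 and 2.03 for 4 of 7 immune markers and 8.07, 10.8, 4.91 and 4.06 for 5 of 6 fibroblast markers, the others having no row. In the same order, neuron and glia markers summed to 10.1, 4.89, 7.86 and 5.08 and enteroendocrine markers to 3.03, 6.84, 6.87 and 5.08. The leukocyte gene Ptprc and the fibroblast genes Dcn and Pdgfra were at 0 in every library. In the smooth muscle, endothelial, immune and fibroblast lists, all genes with a limma adjusted p under 0.05 were higher in G2, and 0 were lower. Those were Acta2 (51.9-fold, adjusted p = 0.00172), Tek (13.2-fold, adjusted p = 0.00587), Col3a1 and Csf1r. Genes of these lists without such a p lay in both directions. The fibroblast gene Col1a1 had lower values in G2, with 1 and 2 counts against 5 and 4 in G0 (limma adjusted p = 0.306). The macrophage gene Csf1r had 16 and 5 counts in G2 and 0 in both G0 libraries (adjusted p = 0.0431), and the collagen gene Col3a1 had 7 and 7 in G2 and 0 in both G0 libraries (adjusted p = 0.0404). Laptm5, an immune marker, had 7 and 24 counts in G2 and 1 and 1 in G0 (adjusted p = 0.0550). Colonocyte markers summed to 4134.8 and 513 in G2 and to 40.3 and 106.7 in G0, mostly Car1. The part of these differences in the results on transporters was not tested, and in bulk RNA fewer cells of a type and less RNA per cell cannot be told apart.

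Of the 45 transporter genes, 5 rose or fell between G2 and G0 and 28 others were measured without passing the test. Slc7a11, Slc43a2 and Slc6a14 were higher in G2, and Slc1a4 and Slc7a5 were lower. The remaining 12 were too low to test, with 5 at a count of 0 in all libraries and 7 with a mean under 1 normalized count. The test was limma on log2(normalized count + 1), with p-values adjusted over the 13981 genes it was run on and called at 0.05. The 5 calls are 15.2% of the 33 members tested, where 10.5% of all genes tested passed; 5.93% of all genes were higher and 4.56% lower in G2. The median log2 fold change was 0.14 over the members tested and 0.01 over all genes tested. The groups did not overlap for 20 of the 33 members (60.6%), 10 higher and 10 lower in G2; over all genes tested this share was 57.8%, with 29.2% higher and 28.6% lower. An unadjusted p under 0.05 was found for 12 of the 33 members, and for 26.8% of all genes tested. The median absolute log2 fold change was 0.48 over the members tested and 0.33 over all genes tested. The shares called and without overlap are near those of all genes and show nothing particular to the families. The unadjusted share and the absolute change lay somewhat above those of all genes, which was not tested. The results below are therefore about the single genes.

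**Figure D1:**
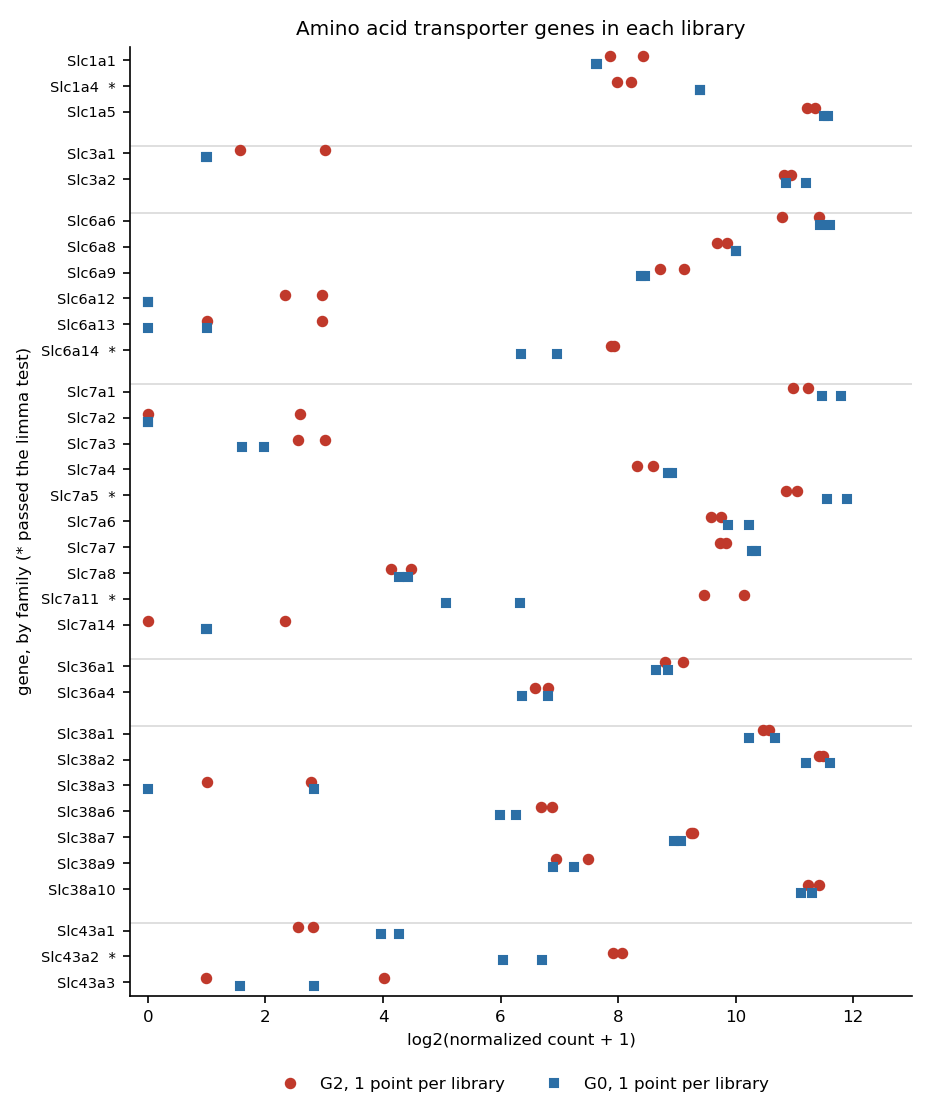
Each of the 33 tested members is a row, grouped by SLC family, with log2(normalized count + 1) on the horizontal axis; red circles are the 2 G2 libraries, blue squares the 2 G0 libraries, and an asterisk marks the 5 genes that passed the limma test. The widest gap between the groups is at Slc7a11, and most SLC38 genes have overlapping groups.

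No member's call held when a library was left out. Without G2 replicate 1, G2 replicate 2, G0 replicate 1 or G0 replicate 2, 0 of the members passed, and 10, 11, 8 and 9 members had an unadjusted p under 0.05, against 12 with all libraries. The adjusted p over these 4 fits was 0.105 to 0.177 for Slc7a11, 0.117 to 0.169 for Slc1a4, 0.158 to 0.262 for Slc43a2, 0.143 to 0.295 for Slc7a5 and 0.169 to 0.299 for Slc6a14. The direction of all 5 genes was the same in each of these fits, which was fixed in advance. Their groups did not overlap, so leaving out a library could not reverse it, and this adds no support. On the deposited log2 scale, which compresses low values, all 5 passed with smaller differences of 2.48 for Slc7a11, 0.86 for Slc43a2 and 0.68 for Slc6a14, against 4.10, 1.61 and 1.25 on the scale used here. With a library left out, 0 to 2 of all genes tested passed, so the calls in the other gene lists below rest on all 4 libraries too.

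Slc7a11 (xCT, gene ID 26570), the light chain that imports cystine in exchange for glutamate, changed the most of the members that passed. It lies on chromosome 3 from 50364936 to 50499087 (all positions are those of RefSeq on GRCm38.p6, that is mm10). Slc7a11 had 1130.5 and 702 normalized counts in the G2 libraries and 79.5 and 32.5 in the G0 libraries. Both G2 libraries were far above both G0 libraries, and the G0 lines differed from each other by more than the G2 lines did in proportion. The ratio of the means was 16.4, with a log2 fold change of 4.10 and an SE of 0.43 (adjusted p = 0.00254), and by p it ranked 175 among all genes tested. The ratio was 28.2 without G0 replicate 1, 11.5 without G0 replicate 2, 12.5 without G2 replicate 1 and 20.2 without G2 replicate 2.

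The stretch upstream of the Slc7a11 start is shown because it holds 2 matches to the letters of an ATF4 response element, beside the upstream stretches of Slc7a7, which was the only other member with such a match, and of Asns, a standard ATF4 target described further on. Each is the 250 bases before a RefSeq transcription start, read 5′ to 3′ on the strand of the gene, with matches to the letters TGATGNAA on either strand in capitals. This is the core of the C/EBP-ATF response element, known as CARE. For Slc7a11 the start is the only one in the RefSeq promoter table, at 50443613, which lies 55.5 kb inside the upstream end of the gene span given above.
Slc7a11, GRCm38.p6 chr3:50443614-50443863, minus strand: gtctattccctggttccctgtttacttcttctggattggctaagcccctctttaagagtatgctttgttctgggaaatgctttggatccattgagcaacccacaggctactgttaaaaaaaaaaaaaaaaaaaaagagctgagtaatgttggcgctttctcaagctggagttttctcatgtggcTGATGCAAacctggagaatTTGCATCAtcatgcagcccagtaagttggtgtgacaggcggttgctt
Slc7a7, GRCm38.p6 chr14:54417945-54418194, minus strand: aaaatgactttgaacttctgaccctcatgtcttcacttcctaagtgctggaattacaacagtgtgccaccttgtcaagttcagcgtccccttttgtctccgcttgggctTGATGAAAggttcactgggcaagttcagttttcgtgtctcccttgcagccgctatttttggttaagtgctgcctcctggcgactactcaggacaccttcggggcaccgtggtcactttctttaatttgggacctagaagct
Asns, GRCm38.p6 chr6:7693210-7693459, minus strand: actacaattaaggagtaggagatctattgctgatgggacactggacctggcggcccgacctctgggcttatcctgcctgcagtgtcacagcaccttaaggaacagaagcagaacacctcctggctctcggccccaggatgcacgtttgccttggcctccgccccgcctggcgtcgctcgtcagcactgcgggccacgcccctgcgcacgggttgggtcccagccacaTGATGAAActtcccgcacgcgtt
In Slc7a11 the letters stood from 66 to 59 bases before the start on the gene's strand and from 47 to 40 bases before it on the other strand, without overlap. Slc7a7 has several annotated starts, and the stretch shown held 1 match from 141 to 134 bases before its start; a nearer start had another match from 243 to 236 bases before it. In Asns the match lay from 23 to 16 bases before the start. Of all 32851 windows of this length in the RefSeq table, 3.45% held the letters and 13 windows (0.0396%) held them at least 2 times. The Slc7a11 window was picked for its 2 matches, so the last share is no test of it. For 31 of the 45 members there were 50 windows, of which 3 held the letters, and Slc7a11 and Slc7a7 were the 2 members with a match. The core of the antioxidant response element bound by NRF2, TGACNNNGC on either strand, was found for 6 members, Slc43a1, Slc6a9, Slc7a1, Slc6a13, Slc7a6 and Slc38a2. It stood in 7 of the 50 member windows and in 10.2% of all windows. Of these 6 genes 0 passed the limma test, where 10.5% of all genes tested passed. An unadjusted p under 0.05 in limma was found for 3 of the 6, against 26.8% of all genes tested, and 6 genes are too few to compare. A match describes letters in these windows and not a bound site.

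Among carriers of large neutral amino acids, Slc43a2 rose and Slc7a5 fell. Slc7a5 (LAT1, gene ID 20539, chromosome 8 from 121881146 to 121907686) is the exchanger that brings leucine and other essential amino acids into growing cells. Its normalized counts were 2115.8 and 1859 in G2 and 3792 and 3002 in G0. The groups did not overlap, and G2 was 1.71-fold lower by the means (log2 fold change -0.77, SE 0.16, adjusted p = 0.0290). This call was close to the threshold, with an adjusted p of 0.0515 without a filter on low values, 0.0593 after quantile normalization, 0.0642 after scaling by library totals and 0.140 without an intensity trend. Slc43a2 (LAT4, gene ID 215113, chromosome 11 from 75529915 to 75577575) is a carrier that lets the same amino acids pass in both directions and is known from the basolateral side of intestinal and kidney epithelium. It had 239 and 267 normalized counts in G2 and 103 and 65.0 in G0. Both G2 lines were above both G0 lines, 3.01-fold by the means (log2 fold change 1.61, SE 0.29, adjusted p = 0.0165), and its adjusted p was 0.0732 without an intensity trend. An antisense transcript, Gm45606, shares 12.2% of the exon bases of Slc43a2 in GENCODE M21, and the strand setting of the counting is not given in the sources used here, so reads of the pair cannot be told apart.

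The other carriers of this class were low. Slc43a1 (LAT3) had 6.05 and 4.89 normalized counts in G2 and 14.7 and 18.3 in G0, without overlap, and did not pass (adjusted p = 0.119). Slc7a8 (LAT2) had 21.2 and 16.6 in G2 and 20.6 and 18.3 in G0, with overlapping groups (adjusted p = 0.953). Summed over the class, the normalized counts were 2382 and 2147.5 in G2 and 3931 and 3103 in G0, of which Slc7a5 made up most in every library.

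Slc3a2, the heavy chain of these heterodimers, did not pass the test. It had 1964.5 and 1811 normalized counts in G2 and 1848 and 2357 in G0, and the groups overlapped (log2 fold change -0.15, SE 0.16, adjusted p = 0.592). Its 5 light chains with a row, Slc7a5, Slc7a6, Slc7a7, Slc7a8 and Slc7a11, were compared per kb of transcript, since levels of different genes depend on length. Together they reached 1334 and 1214 normalized counts per kb in G2 and 1985 and 1658 in G0, so the pool was smaller in both G2 libraries. Light chains summed to 1.91 and 1.89 times the level of Slc3a2 in G2 and to 3.02 and 1.98 times in G0, a gap that rests on G0 replicate 1. Slc7a5 made up 45.1% and 43.5% of the pool in G2 and 54.3% and 51.5% in G0. Slc7a11 made up 9.19% and 6.27% in G2 and 0.434% and 0.213% in G0. With merged exon lengths, an alternative chosen after seeing the data, the shares of Slc7a11 were 9.46% and 6.55% in G2 and 0.446% and 0.221% in G0. No test was run on these shares; an exact two-sided permutation test of 2 values against 2 cannot go below p = 0.333.

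**Figure D2:**
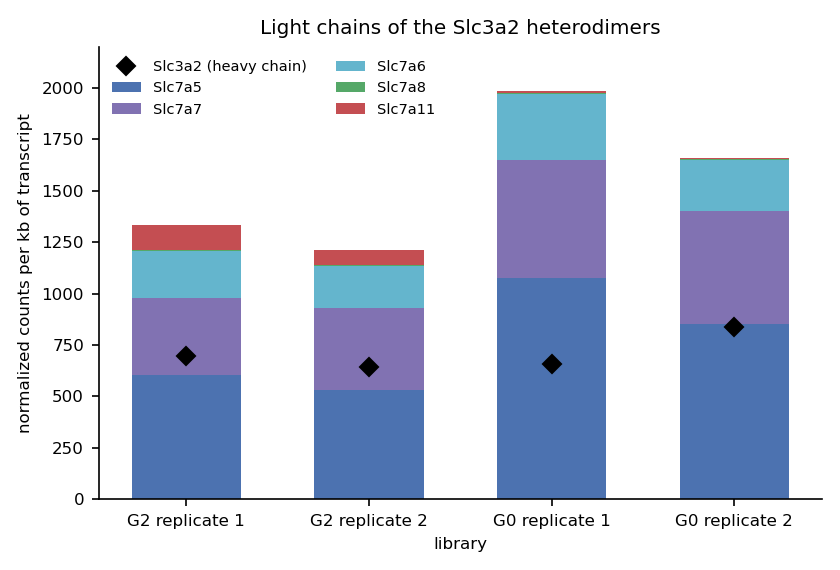
Stacked bars give the normalized counts per kb of transcript of the 5 light chains in each library, and black diamonds give the heavy chain Slc3a2 on the same axis. Bars are shorter in both G2 libraries, the Slc7a11 segment is visible mainly there (9.19% and 6.27% of the bar), and the diamonds overlap between groups.

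The heavy chain Slc3a1 (rBAT), which carries cystine and cationic amino acids with Slc7a9 in kidney and small intestine, was near the detection limit. It had 7 and 2 counts in G2 and 1 and 1 in G0, a ratio of 4.47 with a 95% exact counting interval of 0.926 to 42.5 (adjusted p = 0.332), and 26.5% of its exon bases overlap Prepl on the opposite strand. Its partner Slc7a9 had a count of 0 in every library, which at this depth allows up to 3 counts in each. Intervals and this floor cover counting error only.

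Among the carriers of small neutral amino acids and glutamine, Slc1a4 fell and the abundant glutamine carriers did not pass. Slc1a4 (ASCT1, gene ID 55963, chromosome 11 from 20302180 to 20332713) exchanges alanine, serine and cysteine. It had 295.5 and 251 normalized counts in G2 and 671 and 675.5 in G0. The G0 lines were nearly equal and the G2 lines lay well below them, 2.46-fold by the means (log2 fold change -1.30, SE 0.17, adjusted p = 0.00560). Slc1a5 (ASCT2), its paralog that also carries glutamine, had 2595 and 2387 in G2 and 3056 and 2885 in G0, with G2 below G0 without overlap and a 1.19-fold ratio of the means (log2 fold change -0.25, SE 0.13, adjusted p = 0.254). Per kb of transcript Slc1a5 was the highest of all members in each of the 4 libraries, with means of 901 in G2 and 1075 in G0.

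The sodium-coupled SLC38 carriers had mostly overlapping groups. Slc38a2 (SNAT2), which is known to rise when amino acids are withdrawn, had 2881 and 2727 normalized counts in G2 and 3107 and 2344.5 in G0. Slc38a1 (SNAT1), a glutamine carrier of dividing cells, had 1524 and 1417 in G2 and 1619 and 1194 in G0. In both genes the G2 values lay between those of the G0 lines, and the log2 fold changes were 0.05 and 0.08 with SEs of 0.17 and 0.18. Slc38a10, whose substrates are less defined, had 2396 and 2730.0 in G2 and 2219 and 2525 in G0. Slc38a7, a glutamine carrier of the lysosome, had 603 and 622 in G2 and 539 and 495 in G0, higher in G2 without overlap (log2 fold change 0.25, SE 0.15, adjusted p = 0.342). Slc38a6 had 116 and 102.6 in G2 and 75.6 and 63.0 in G0, also without overlap (log2 fold change 0.65, SE 0.27, adjusted p = 0.182). Slc38a9, the lysosomal carrier that reports arginine to mTORC1, had 178.5 and 122 in G2 and 151 and 118 in G0, with overlap. Slc38a3 had at most 6 counts in a library. The family sum was 7700 and 7727 in G2 and 7712 and 6746 in G0, and 0 of its 7 tested genes passed the limma test, with 1, Slc38a6, at an unadjusted p under 0.05.

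Among carriers of cationic amino acids, and of cationic and neutral ones, Slc6a14 was the only gene that passed. Slc6a14 (ATB0,+, gene ID 56774, X chromosome from 21714900 to 21742358) concentrates neutral and cationic amino acids with sodium and chloride and is known from colon and lung epithelium. It had 234 and 244 normalized counts in G2 and 124 and 80.2 in G0. The G2 lines were close to each other and above both G0 lines, 2.35-fold by the means (log2 fold change 1.25, SE 0.27, adjusted p = 0.0329). Its adjusted p was 0.0594 without a filter on low values, 0.0638 after quantile normalization and 0.103 without an intensity trend. It is 1 of 3 members on the X chromosome, and the other X-linked members, the creatine carrier Slc6a8 and Slc7a3, did not pass. The groups differ in the Y transcripts named above, and whether X-linked genes as a whole differed was not tested.

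The 3 abundant SLC7 genes of these classes had lower values in both G2 lines and did not pass. Slc7a1 (CAT1), the main carrier of arginine and lysine in many cells, had 2405 and 2007 normalized counts in G2 and 3557 and 2821 in G0 (log2 fold change -0.53, SE 0.17, adjusted p = 0.0961). Slc7a7 (y+LAT1), which releases cationic amino acids at the basolateral side, had 855 and 916 in G2 and 1304 and 1245 in G0 (log2 fold change -0.53, SE 0.13, adjusted p = 0.0539). Slc7a6 (y+LAT2) had 861 and 763 in G2 and 1202 and 936 in G0 (log2 fold change -0.39, SE 0.17, adjusted p = 0.204). In each of these 3 genes the groups did not overlap. Slc7a7 lay just outside the threshold, and passed with a pseudocount of 5 (adjusted p = 0.0498) and with a filter at a mean of at least 10 (0.0486); 7.24% of its exon bases overlap Oxa1l on the opposite strand. Slc7a3 and Slc7a2, the other cationic carriers, had 7 and 5 counts and 5 and 0 counts in G2, against 3 and 2 counts and 0 and 0 counts in G0.

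**Figure D3:**
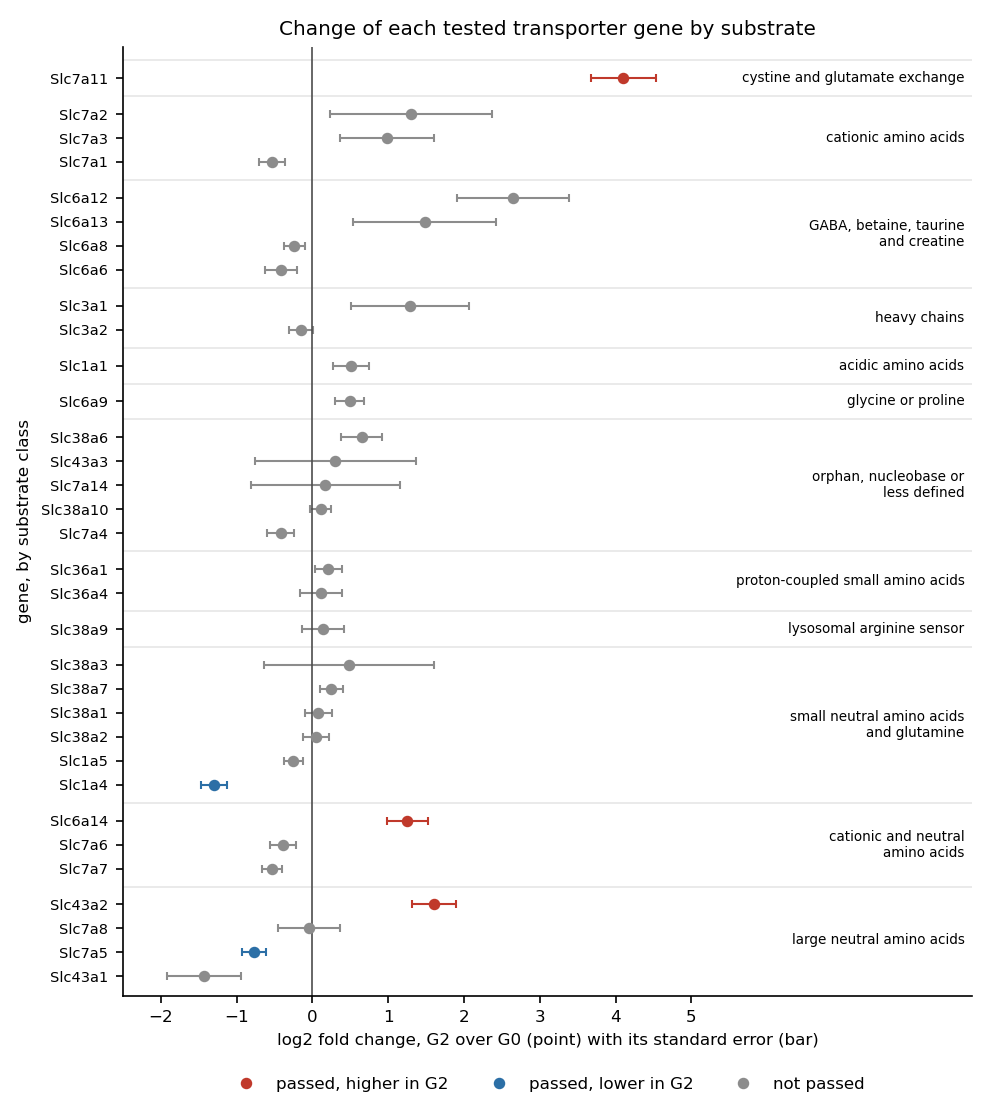
Points give the log2 fold change of G2 over G0 of each tested member and bars its standard error, grouped by substrate; red passed the limma test as higher in G2, blue as lower in G2, and grey did not pass. Genes that passed stand on both sides of 0 within the class of large neutral amino acids, and Slc7a11 stands at 4.10.

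The remaining SLC1, SLC6, SLC7 and SLC36 genes gave no calls. Slc1a1 (EAAT3), the glutamate and aspartate carrier of epithelia, had 233 and 342 normalized counts in G2 and 197 and 199 in G0, without overlap (log2 fold change 0.51, SE 0.24, adjusted p = 0.228), and 32.0% of its exon bases overlap 4430402I18Rik on the opposite strand. Slc6a9 (GLYT1), a glycine carrier, had 556 and 419 in G2 and 350 and 336 in G0, without overlap (log2 fold change 0.49, SE 0.19, adjusted p = 0.163), and shares 34.9% of its exon bases with Ccdc24 on the opposite strand. Slc6a6, the taurine carrier and the most abundant SLC6 gene, had 2737 and 1776 in G2 and 3105 and 2776 in G0 (log2 fold change -0.41, SE 0.21, adjusted p = 0.260). The G2 lines differed more than the gap between the nearest lines of the groups. Slc6a8, the creatine carrier, had 919 and 818 in G2 and 1030.0 and 1025 in G0 (adjusted p = 0.306). Slc7a4, a relative of the cationic carriers with no settled substrate, had 320 and 386 in G2 and 458 and 484.5 in G0 (log2 fold change -0.42, SE 0.18, adjusted p = 0.186). The proton-coupled carrier Slc36a1 (PAT1) had 549 and 446 in G2 and 458 and 401 in G0, with overlap (adjusted p = 0.504). Its paralog Slc36a4 had 94.8 and 111 in G2 and 111 and 81.3 in G0, also with overlap (adjusted p = 0.829).

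A pair of neighbouring SLC6 genes was found at low counts mainly in G2. Slc6a12 (BGT1), a betaine and GABA carrier, had 4 and 7 counts in G2 and 0 in both G0 libraries, at least 1.82-fold higher against a floor of 3 counts per library (adjusted p = 0.0680). Slc6a13 (GAT2), a GABA and taurine carrier that lies 4.85 kb from it on chromosome 6, had 1 and 7 counts in G2 and 0 and 1 in G0 (adjusted p = 0.353). Slc6a12 passed with no filter on low values (adjusted p = 0.0456) and without an intensity trend (0.0313). Slc6a3, the dopamine carrier, and Slc6a18, a neutral amino acid carrier of kidney, flank Tert on chromosome 13 at distances of 48.2 and 11.9 kb. Slc6a3 had a count of 0 in every library and Slc6a18 had 1 count, in G2 replicate 2, beside the Tert levels given above.

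Several carriers were at or near 0 in all lines. Slc1a2 and Slc1a3, the glutamate carriers of glia, and Slc36a3 had a count of 0 in every library, as did Slc7a9 and Slc6a3. Slc1a6, Slc6a7, Slc6a15, Slc6a17, Slc6a18, Slc36a2 and Slc38a4 had at most 3 counts in any library. Slc43a3, a nucleobase carrier despite its family name, had 15 and 1 counts in G2 and 2 and 6 in G0, and Slc7a14 had at most 4 counts. The RefSeq annotation holds 16 further symbols that fit the naming rule and have no row in the table, and they were not analysed here.

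By family, summed normalized counts were lower in both G2 libraries for SLC1, with 3123 and 2980 in G2 and 3924 and 3760.5 in G0, and for SLC7, with 7725 and 6655 in G2 and 10417 and 8542 in G0. They were higher in both G2 libraries for SLC43, with 260.2 and 273 in G2 and 120 and 89.4 in G0, which is mostly Slc43a2. Sums over SLC3, SLC6, SLC36 and SLC38 overlapped between the groups. Scaled by library totals, an alternative chosen after seeing the data, SLC38 did not overlap, with 461.5 and 461 CPM (counts scaled to the library total) in G2 and 458 and 371 in G0, and the order of the other families was as before. Over all 45 members the sum was 25875 and 23283 in G2 and 29200 and 26198.5 in G0, and scaled by library totals it was 1551 and 1388 CPM in G2 and 1734 and 1441 in G0, so the groups overlapped on the second scale. By level per kb of transcript Slc7a5 had ranks 4 and 5 among the members in the G2 libraries and rank 2 in both G0 libraries. Slc3a2 had rank 2 in both G2 libraries and ranks 4 and 3 in the G0 libraries.

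Genes of amino acid synthesis and glutathione that stand beside these carriers in the same pathways were lower in G2 where they passed. Of 22 genes known as ATF4 or amino acid response targets, 5 fell and 0 rose in the limma test, with a median log2 fold change of -0.65 against 0.01 over all genes tested. The 5 falls are 22.7% of the list, against 4.56% of all genes tested, and 54.5% of the list had an unadjusted p under 0.05 (9 lower and 3 higher), against 26.8% of all genes. This list was written with the fall of Asns, Psat1 and Phgdh already known. Asns, asparagine synthetase, whose upstream sequence is printed above, had 1336 and 1433 normalized counts in G2 and 2846.5 and 3311.5 in G0, 2.22-fold lower (adjusted p = 0.00430). Among the genes printed above with the CARE letters, Slc7a11 was higher and Asns lower in G2. Slc7a7 had lower values without passing (log2 fold change -0.53, limma adjusted p = 0.0539). Whether the letters bear on these changes was not tested. Psat1, of serine synthesis, had 1585 and 1484 in G2 and 3149.9 and 2994 in G0 (adjusted p = 0.00522). Shmt2, of glycine synthesis, fell 1.71-fold (adjusted p = 0.0131), Phgdh, which starts serine synthesis, fell 1.77-fold (adjusted p = 0.0365), and Aldh18a1, of proline synthesis, fell 1.75-fold (adjusted p = 0.0154). Atf4 itself had 2762 and 2501 in G2 and 2914 and 3131 in G0 and did not pass (adjusted p = 0.371). At an unadjusted p under 0.05 but without passing, Pycr1, Nupr1 and Atf3 had higher values in G2 (1.81-fold, 1.96-fold and 1.63-fold, adjusted p = 0.0570, 0.0781 and 0.0864). Eif4ebp1, Mthfd2, Trib3 and Cth had lower values in G2, with adjusted p of 0.0688, 0.0793, 0.103 and 0.162.

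Of 13 glutathione cycle genes tested, 5 fell and 0 rose in the limma test, with a median of -0.89 and with 8 lower and 1 higher at an unadjusted p under 0.05. The falls are 38.5% of the list, against 4.56% of all genes tested, and 69.2% had an unadjusted p under 0.05, against 26.8%; falls in antioxidant genes were known when the list was written. Gclc, the catalytic subunit of the enzyme that joins cysteine to glutamate, had 1594 and 1332 normalized counts in G2 and 3659.5 and 3031 in G0, 2.29-fold lower (adjusted p = 0.00592). Gclm, its modifier subunit, had 948 and 1007 in G2 and 1710.5 and 1907 in G0, 1.85-fold lower (adjusted p = 0.00984). In both genes the G2 lines lay well below the G0 lines. Gss, the next enzyme, fell 1.62-fold (adjusted p = 0.0329), Ggt6, a gamma-glutamyltransferase relative, fell 2.56-fold (adjusted p = 0.0357) and Gpx2, the glutathione peroxidase of gut epithelium, fell 2.23-fold (adjusted p = 0.0368). The cystine importer Slc7a11 was higher in the libraries in which these genes were lower.

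Of 14 genes of glutamine and glutamate metabolism, 4 fell and 0 rose in the limma test, with a median of -0.44 and with 7 lower and 1 higher at an unadjusted p under 0.05. The falls are 28.6% of the list, against 4.56% of all genes tested, and 57.1% had an unadjusted p under 0.05 in limma, against 26.8%. Of the 4 falls, 2, Asns and Aldh18a1, also stand in the ATF4 list, and that of Asns was known when the lists were chosen. Gls2, the liver-type glutaminase, had 52.4 and 29.3 normalized counts in G2 and 161 and 168 in G0, 4.02-fold lower (adjusted p = 0.0138), and Got1, the cytosolic aspartate aminotransferase, fell 1.62-fold (adjusted p = 0.0298). Of 19 cytosolic aminoacyl-tRNA synthetases, Yars and Gars fell 1.59-fold and 1.44-fold (adjusted p = 0.0428 and 0.0435) and 0 rose, with a median of -0.27 and with 6 lower and 0 higher at an unadjusted p under 0.05 in limma; Farsb and Cars had adjusted p of 0.0848 and 0.115. These 2 calls, both falls, are 10.5% of the list, where 4.56% of all genes tested were lower and 10.5% passed in either direction. An unadjusted p under 0.05 in limma was found for 31.6% of the list, against 26.8% of all genes tested. Of 32 genes that sense amino acids for mTORC1 and GCN2, Sesn3, a sestrin, rose 1.81-fold (adjusted p = 0.0434) and 0 fell, with a median of -0.01 and with 2 higher and 2 lower at an unadjusted p under 0.05 in limma. Of this list 3.12% passed and 12.5% had an unadjusted p under 0.05, below the 10.5% and 26.8% of all genes tested. Castor1, an arginine sensor, had 60.5 and 44.0 in G2 and 100.2 and 152 in G0 (adjusted p = 0.0607), and Eif2ak4, which encodes GCN2, had 296.5 and 359 in G2 and 452 and 504 in G0 (adjusted p = 0.110).

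Carriers of amino acids and peptides outside the 7 families included 2 that rose and 1 that fell among 12 tested, which is 25% against 10.5% of all genes tested. Slc15a2 (PEPT2), a peptide carrier, had 84.7 and 106 normalized counts in G2 and 0.982 and 0 in G0, a ratio of 191 with a 95% exact counting interval of 33.9 to 7578 that rests on 1 count in G0 (adjusted p = 0.00137). Slc16a10 (TAT1), which lets aromatic amino acids leave epithelial cells, had 212 and 186 in G2 and 83.5 and 73.1 in G0, 2.54-fold higher (adjusted p = 0.0181). Slc25a12, a mitochondrial aspartate and glutamate carrier, had 708 and 649 in G2 and 1052 and 1113 in G0, 1.60-fold lower (adjusted p = 0.0289). Ctns, the lysosomal cystine exporter, had 266 and 324.5 in G2 and 178 and 204 in G0, without overlap (adjusted p = 0.113).

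**Figure D4:**
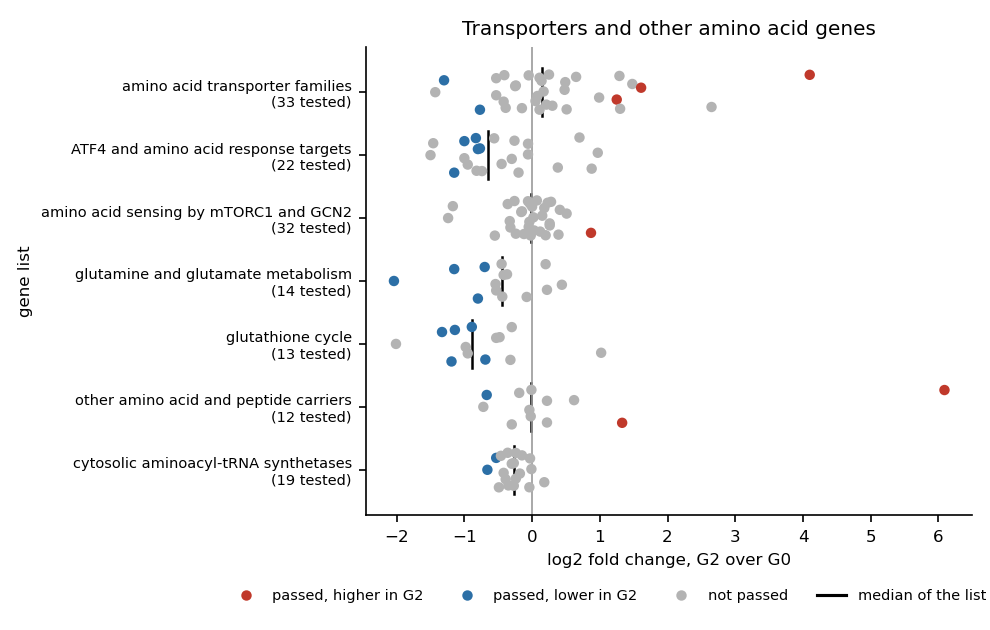
Each point is the log2 fold change of G2 over G0 of a tested gene, in the transporter families and in 6 other lists; red passed as higher in G2, blue as lower in G2, grey did not pass, and the black line is the list's median. Blue points stand among others in the ATF4, glutamine and glutathione lists, whose medians are -0.65, -0.44 and -0.89, while the transporter families have points of both colours around a median of 0.14.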

How the data were processed

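The authors deposited values on a log2 scale for 16857 genes in 4 libraries, and the submitters' processing notes name build mm10, DESeq2 1.32.0, R 3.5.2, StringTie 2.1.1, HISAT2 2.1.0 and bcl2fastq 2.20.0. Which annotation, strand setting and read filters were used is not given in the sources used here. Every library has the same lowest value, 6.508, as a variance-stabilizing transformation gives to a count of 0. It was inverted with that floor as its only constant, and 1 factor per library then made 100% of the values whole within 0.001. StringTie estimates coverage, so these counts may be rounded estimates, and no count model was run. The design allowed for normalized values or counts, and its rule for normalized values was used. This was a two-sided limma test (limma 3.58.1, R 4.3.3) with group as the only term, moderated with an intensity trend and adjusted by Benjamini-Hochberg. It ran on log2(normalized count + 1) where the mean normalized count reached 1. Such fold changes understate low genes. The steps were tested on simulated data.

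Folds in words are ratios of mean normalized counts. The rule named members that passed, the 2 with the highest mean in each family, partners of a named heterodimer, members at 0 in all libraries of 1 group and, of each other list, up to 4 genes with the smallest p. The other members, and Atf4, Phgdh, Gpx2 and the genes named at an unadjusted p, were added after their values were seen. Length per gene is that of the longest coding transcript of GENCODE M21, CCDS transcripts first. The members and lists were chosen with earlier results of these data known. Alternatives covered the pseudocount, filter, scaling, trend, the deposited scale, the threshold, autosomes only, a replicate block and each library left out.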

Additional observations from a re-analysis of the deposited data

How the results depend on the processing

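With all 4 libraries kept, Slc7a11 and Slc1a4 passed under all 12 alternatives, Slc43a2 under 11 of 12, Slc7a5 under 8 of 12 and Slc6a14 under 8 of 11, and 0 of the 5 changed direction under any alternative. With a library left out, their direction could not change, since their groups did not overlap. The threshold of 0.1 and the autosomes-only setting reuse the main fit and its adjusted p. A gene called in the main fit could not fail these settings, so those passes add no support. On the deposited scale the log2 differences were 2.48 for Slc7a11, 0.86 for Slc43a2 and 0.68 for Slc6a14. The count of members lower in G2, 2, was 1 with no filter on low values, after scaling by library totals, after quantile normalization and without an intensity trend, 3 with a pseudocount of 5 and with a mean of at least 10, and 4 at an adjusted p of 0.1; the cause was not tested. The count higher, 3, was 2 after quantile normalization, without a trend and over autosomes only, where Slc6a14 is not tested, and 4 at an adjusted p of 0.1 and with a replicate block. Replicate numbers pair nothing in the labels, and deviations of same-numbered libraries correlated at 0.109 across genes; with a replicate block 6 members were lower in G2 and 10 passed, beside 3503 of all genes. With 1 library left out, the counts of members higher and lower were both 0 to 0, and the median log2 fold change, 0.14, was 0.04 to 0.26, the highest without G0 replicate 1; the lone library is then assumed to vary like the other group. All genes called numbered 1467, against 1065 with no filter, 623 without a trend and 0 to 2 with a library left out. Members with few counts, such as Slc3a1, Slc6a13 and Slc7a2, limit what can be seen at this depth.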
